A study of Danio rerio with 14 samples.

Results

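The alpha, beta and gamma crystallins of the lens were examined in zebrafish larvae exposed to M510F01, boscalid or solvent. Members were all genes of the deposited tables whose symbol begins with crya, cryb or cryg, apart from the crybg genes, and which had at least 1 read in some library. The symbol rule matched 55 of 36351 rows. One of these, crygm6, had no read in any library, so 54 genes remained, out of 33541 genes with at least 1 read. They comprised 3 alpha crystallins, 13 beta crystallins and 38 gamma crystallins.

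All larvae were of the AB wild-type strain and were sampled whole at 96 hours post fertilization (hpf). M510F01 larvae received M510F01, a metabolite of boscalid, at 0.03 µg/L. Boscalid larvae received boscalid, a fungicide that inhibits succinate dehydrogenase of the mitochondrial respiratory chain, at 0.03 µg/L. DMSO larvae received the solvent dimethyl sulfoxide at 0.01% by volume. Exposure began at 3 hpf and ran to sampling, with daily renewal per the series description. The sample titles spell the M510F01 group "Boscalite". Each group had 4 libraries with a column in the tables, 12 in all. The fifth boscalid and the fifth M510F01 sample were not analysed here. Whether replicates were separate clutches, tanks or pools is not stated in the labels, and p-values therefore reflect only the spread among these libraries, which may be technical. The reads assigned to genes ranged from 12893093 to 17060350 per library.

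Crystallins are the soluble proteins that fill lens fibre cells and give the lens its refractive power. Alpha crystallins belong to the small heat shock proteins and act as chaperones that keep other lens proteins in solution. Beta crystallins are structural proteins that assemble into oligomers of acidic subunits (cryba genes) and basic subunits (crybb genes), while gamma crystallins are compact monomers that pack densely. The gamma M crystallins (crygm genes) are rich in methionine and form a large family in fish, whose lenses are hard and round. Gamma N (crygn) and gamma S (crygs) crystallins are smaller branches of the same superfamily. Fibre cells make them while they differentiate, before they lose their nuclei.

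Values are given as normalized counts, in which the reads of a gene are scaled by the size factor of their library. Values per library and values set across all 3 groups are on a scale made by normalizing the 12 libraries together. Means, SDs and fold changes against DMSO are from each compound's own deposited table. Counts were not divided by transcript length, so an order of genes below is an order of read counts and not of molecules. The labelled sample was whole larvae, so fewer lens cells and less crystallin RNA per cell cannot be told apart.

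Crystallin reads made up between 0.778% and 1.08% of all reads assigned to genes in a library. Of the normalized counts of all crystallins, gamma crystallins supplied 56.2%, beta crystallins 43.3% and alpha crystallins 0.477%. The mean over the 12 libraries was at least 500 normalized counts for 31 members, between 100 and 500 for 2 members, between 10 and 100 for 7 members and under 10 for 14 members. The 31 abundant members were 1 alpha, 8 beta and 22 gamma crystallins.

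**Figure D1:**
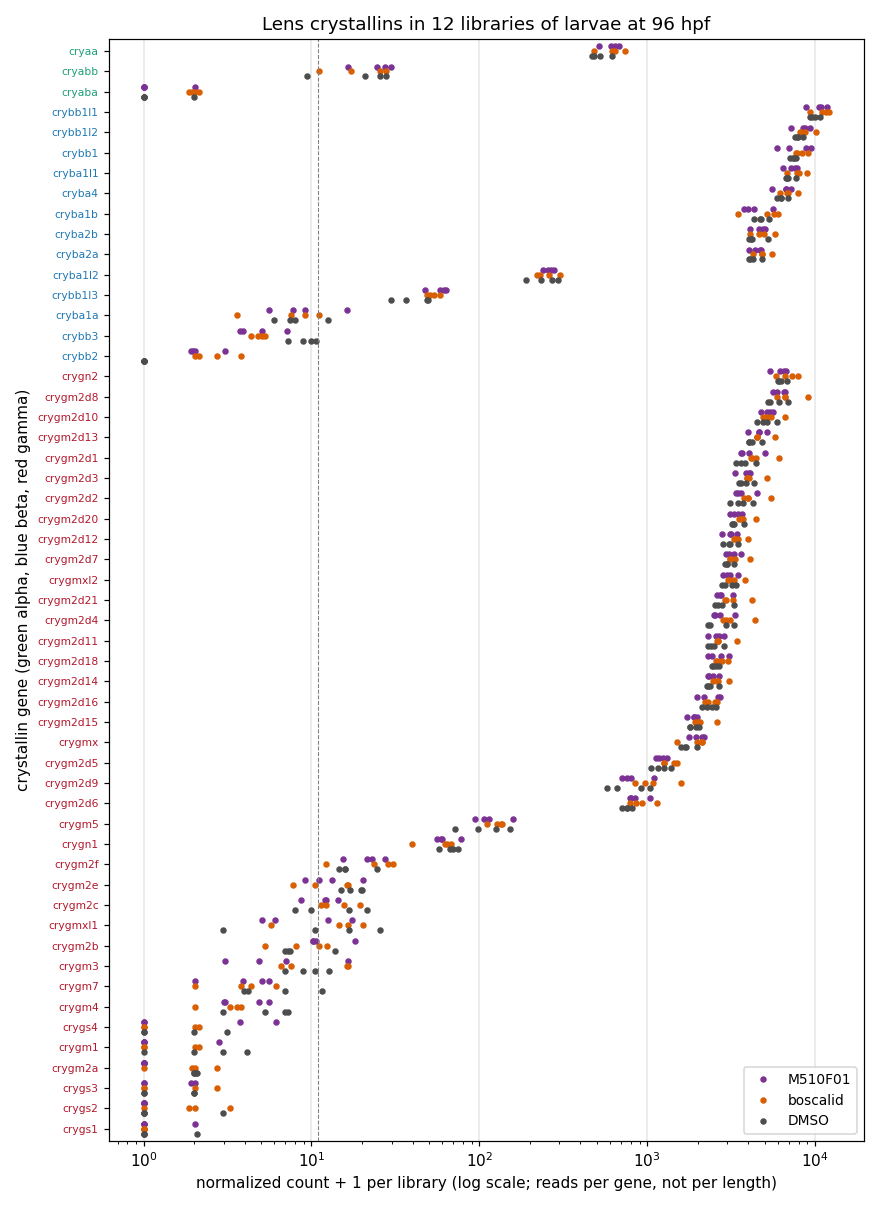
Normalized count plus 1 (log axis) of each of the 54 crystallin genes in each library, with M510F01, boscalid and DMSO libraries drawn in that order within each row and gene names coloured by class. The dashed line marks a normalized count of 10, the minimum mean for testing. The 31 abundant genes, among them all 19 crygm2d genes, lie far to the right of the 14 genes with a mean under 10.

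Among the alpha crystallins, cryaa carried nearly all reads of the class. Cryaa (LL0000007356), the alpha A chaperone of the lens, had 679, 640, 512 and 609 normalized counts in the M510F01 libraries, 614, 639, 735 and 483 in the boscalid libraries, and 478, 525, 618 and 466 in the DMSO libraries. The ranges of the 3 groups overlapped. Cryabb (LL0000007358), a zebrafish copy of the alpha B chaperone, had 23.5, 26.4, 28.8 and 15.6 normalized counts with M510F01, 10.1, 24.5, 26.8 and 16.3 with boscalid, and 19.9, 8.39, 26.7 and 24.5 with DMSO, so single libraries differed by as much as 3.44-fold. The other alpha B copy, cryaba, had at most 1 read in any library, with 1 read in the 4 M510F01 libraries together, 4 in the boscalid libraries and 1 in the DMSO libraries.

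The acidic beta crystallins (7 genes) supplied 22.3% of crystallin counts and the basic beta crystallins (6 genes) 21.1%. The gene with most reads of all crystallins was crybb1l1, a basic beta crystallin, which ranked first in each of the 12 libraries. It had 11776, 10574, 8791 and 10846 normalized counts with M510F01, 11606, 10982, 12134 and 9376 with boscalid, and 9952, 9266, 10724 and 9532 with DMSO. Its paralogue crybb1l2 followed with a mean of 8369, then crybb1 with 7811, and the acidic subunits cryba1l1 with 7385 and cryba4 with 6608. The groups overlapped for each of these genes.

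Not all beta crystallins were abundant. Crybb2, whose counterpart is a major lens protein in mammals, had a mean of 0.969 normalized counts in these larvae, crybb3 had 5.34 and cryba1a had 7.67. In RefSeq's table of GRCz12tu genes, used here for names and neighbours only, 8 beta genes stand as 4 neighbouring pairs of an acidic and a basic gene. Within a pair the read counts could be close or far apart. Cryba4 had a median of 83.5% of the reads of its neighbour crybb1 over the 12 libraries (range 76.3% to 96.3%), and cryba1l1 had 71.9% of crybb1l1 (64.6% to 73.7%). By contrast, cryba1l2 had 3.00% of crybb1l2 (2.39% to 3.56%), and cryba1a had 17.2% of crybb1l3 (4.55% to 25.4%), which was itself low.

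The crygm2d genes dominated the gamma class. All 19 had a mean of at least 500 normalized counts, from 853 for crygm2d6 to 6392 for crygm2d8, and together they supplied 46.9% of all crystallin counts. Crygm2d8 had 6538, 5946, 5620 and 6637 normalized counts with M510F01, 6621, 5939, 9069 and 6657 with boscalid, and 5360, 5259, 6939 and 6122 with DMSO. The third boscalid library stood above all others for this gene, and the remaining libraries of the 3 groups overlapped. The next gamma M crystallins by mean count over the 12 libraries were crygm2d10 with 5298, crygm2d13 with 4574, crygm2d1 with 4201, crygm2d3 with 3968, crygm2d2 with 3895 and crygm2d20 with 3528. Crygn2, a gamma N crystallin, had a mean of 6468 and supplied nearly all of the 5.15% of crystallin counts that came from the 2 crygn genes. Its values were 6750, 6164, 5405 and 6544 with M510F01, 6658, 7306, 7859 and 5820 with boscalid, and 6076, 6238, 6772 and 6029 with DMSO.

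Other gamma crystallins were much lower. Of the 13 crygm genes outside the crygm2d series only crygmx (mean 1893) and crygmxl2 (mean 3156), which neighbour each other in the reference, reached 500, and 6 had means under 10. The 4 crygs genes, which encode gamma S crystallins, had means of at most 1.09 normalized counts and supplied 0.00184% of crystallin counts. All 19 crygm2d genes lie in the reference in 1 run of 31 neighbouring crystallin genes, 29 of which have a row in the tables. That run supplied 47.1% of crystallin counts. Its 10 other genes with a row had means of at most 118, and 5 genes of the run had means under 10. In the order of the reference these 10 genes lay at the ends of the run, with the crygm2d genes together between them. Crygm2d copies resemble each other closely, and the counting of reads that match several copies is not given in the sources used here. The split of reads among single copies is therefore uncertain. So are the summed count of these genes, the shares of the classes and the order of crygm2d genes among other crystallins.

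Summed over a class, crystallin counts of the 3 groups overlapped. Gamma crystallins summed to 73169, 68453, 62780 and 73364 normalized counts in the M510F01 libraries, 71594, 72620, 92334 and 70507 in the boscalid libraries, and 63811, 63882, 76368 and 65902 in the DMSO libraries. The mean sum was 76764 ± 10416 in boscalid larvae and 67490 ± 5997 in DMSO larvae (SD, n = 4 each), and the third library of each was the highest of its group. Beta crystallins summed to 59817, 55408, 46138 and 56392 with M510F01, 57831, 58044, 65834 and 50237 with boscalid, and 51800, 50476, 56899 and 50053 with DMSO. Alpha crystallins summed to 634 ± 69.5 in M510F01 larvae, 638 ± 109 in boscalid larvae and 542 ± 71.6 in DMSO larvae (SD, n = 4 each). For every class the ranges of the groups overlapped.

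**Figure D2:**
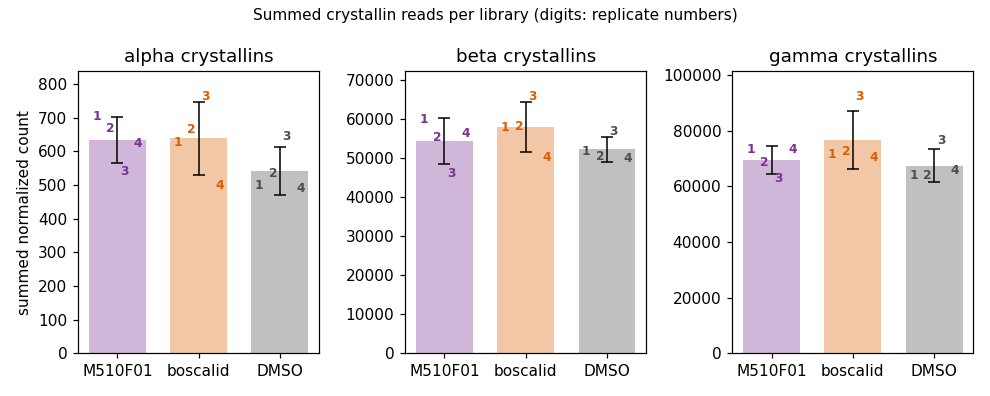
Summed normalized counts of alpha, beta and gamma crystallins in each library (digits give the replicate number), with bars for the group mean and whiskers for the SD of 4 libraries. The boscalid library numbered 3 is the highest of its group in each class, with a gamma sum of 92334, and the M510F01 library numbered 3 is the lowest of its group, with a gamma sum of 62780.

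The first comparison asked whether crystallin transcripts differed between boscalid and DMSO larvae. Of the 54 members, 40 had a mean of at least 10 normalized counts and were tested, and none passed an adjusted p of 0.05 in limma with Benjamini-Hochberg adjustment over all genes. Over all 23085 genes tested, 4 passed (0.0173%). At an unadjusted p under 0.05, 1 crystallin passed, against 7.68% of all genes. EdgeR and DESeq2 on recovered reads also called 0 crystallins, with 1 and 2 at an unadjusted p under 0.05, while they called 0.0173% and 0.402% of all genes. For these tools the share of all genes at an unadjusted p under 0.05 was not counted, here or below.

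The fold changes were small and mostly of the same sign. Their log2 values were positive for 37 of the 40 tested members, where 50.0% of all genes tested were positive, and their median was 0.16, against -4.4e-05 over all genes. All 10 tested beta crystallins had positive values (median 0.15), as had 26 of 28 tested gamma crystallins (median 0.17) and all 19 crygm2d genes (median 0.17, from 0.04 for crygm2d16 to 0.49 for crygm2d9). The 2 tested alpha crystallins had 0.24 and -0.01. The members share libraries and vary together within a group, as given below, so they are not independent observations of the difference. Without the third boscalid library the median was 0.098 for gamma and 0.089 for beta crystallins, and without DMSO replicate 2 the alpha median was -0.05.

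Crygm2d6, a gamma M crystallin, had the smallest p. It had 856, 936, 1142 and 793 normalized counts in the boscalid libraries, against 709, 754, 812 and 761 in the DMSO libraries. All but 1 of the boscalid libraries lay above all DMSO libraries and that 1 lay among them. It averaged 924 ± 151 in boscalid larvae and 752 ± 41.7 in DMSO larvae (SD, n = 4 each), a log2 fold change of 0.28 (SE 0.12, limma adjusted p = 0.647).

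Crygm2d9 had the highest fold change of the tested members. It had 968, 842, 1594 and 1088 normalized counts with boscalid, against 574, 663, 1035 and 917 with DMSO. The groups overlapped, and the libraries numbered 3 were the highest of both groups. Its log2 fold change was 0.49 (SE 0.23, limma adjusted p = 0.647). Crygm2d1 averaged 4676 ± 929 in boscalid larvae and 3773 ± 447 in DMSO larvae (SD, n = 4 each), a log2 fold change of 0.30 (SE 0.15).

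Crybb1l3, a basic beta crystallin of low abundance, had 52.9, 49.9, 57.0 and 47.9 normalized counts with boscalid, against 35.7, 48.2, 47.4 and 28.8 with DMSO. Its log2 fold change was 0.39 (SE 0.19, limma adjusted p = 0.647). The lowest boscalid library lay just below the highest DMSO library. Crygm2e had the lowest fold change, at -0.55 (SE 0.30), on means of 11.7 ± 4.34 in boscalid larvae and 16.7 ± 2.37 in DMSO larvae (SD, n = 4 each). Among the most abundant members, the log2 fold changes were 0.16 for crybb1l1, 0.14 for crybb1l2, 0.15 for crybb1, 0.16 for cryba1l1, 0.14 for cryba4, 0.13 for crygn2 and 0.25 for crygm2d8, with SEs between 0.11 and 0.16. The other abundant gamma M crystallins had 0.11 for crygm2d10, 0.17 for crygm2d13, 0.14 for crygm2d3, 0.24 for crygm2d2 and 0.18 for crygm2d20.

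The same classes were compared between M510F01 and DMSO larvae. This comparison uses the same 4 DMSO libraries as the boscalid one, so the values of the compounds are not independent of each other. Again 40 members were tested and 0 passed the limma threshold, as did 0 of all 23193 genes tested (0%). One crystallin passed an unadjusted p under 0.05 in limma, against 3.61% of all genes. EdgeR and DESeq2 also called 0 crystallins, with 1 each at an unadjusted p under 0.05. Log2 fold changes were positive for 31 of 40 members (51.3% of all genes), with a median of 0.05, against 0.0044 over all genes. Class medians were 0.27 for the 2 tested alpha, 0.07 for the 10 beta and 0.03 for the 28 gamma crystallins. Without M510F01 replicate 4 the gamma median became -0.0052, and without DMSO replicate 3 it became 0.085. The beta median was lowest, at 0.03, without M510F01 replicate 1 and the alpha median was lowest, at 0.10, without DMSO replicate 2.

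Crybb1l3 had the smallest p and the highest fold change of the tested crystallins in this comparison. It had 60.3, 46.6, 57.7 and 62.3 normalized counts in the M510F01 libraries, against 35.7, 48.2, 47.4 and 28.8 in the DMSO libraries. All but 1 of the M510F01 libraries lay above every DMSO library. The log2 fold change was 0.51 (SE 0.20, limma adjusted p = 0.9998), and the DMSO libraries are those that entered the boscalid value above. Reads of its neighbour cryba1a were few in every library, at 35 in the 4 M510F01 libraries and 29 in the 4 DMSO libraries together.

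Crygmx, a gamma crystallin, averaged 1996 ± 176 with M510F01 and 1733 ± 169 with DMSO, and cryaa averaged 607 ± 69.3 with M510F01 and 519 ± 68.7 with DMSO (SD, n = 4 each). Their log2 fold changes were 0.20 (SE 0.11) for crygmx and 0.23 (SE 0.12) for cryaa. Crygm2d6 had 0.19 (SE 0.11), and crygm2e had the lowest value, -0.47 (SE 0.29). The abundant structural genes were close to 0, with 0.08 for crybb1l1, 0.05 for crybb1, -0.02 for crygn2 and 0.07 for crygm2d8. For crygm2d9 the value was 0.10 (95% confidence interval -0.33 to 0.53), on libraries of 761, 707, 803 and 1101 normalized counts with M510F01.

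**Figure D3:**
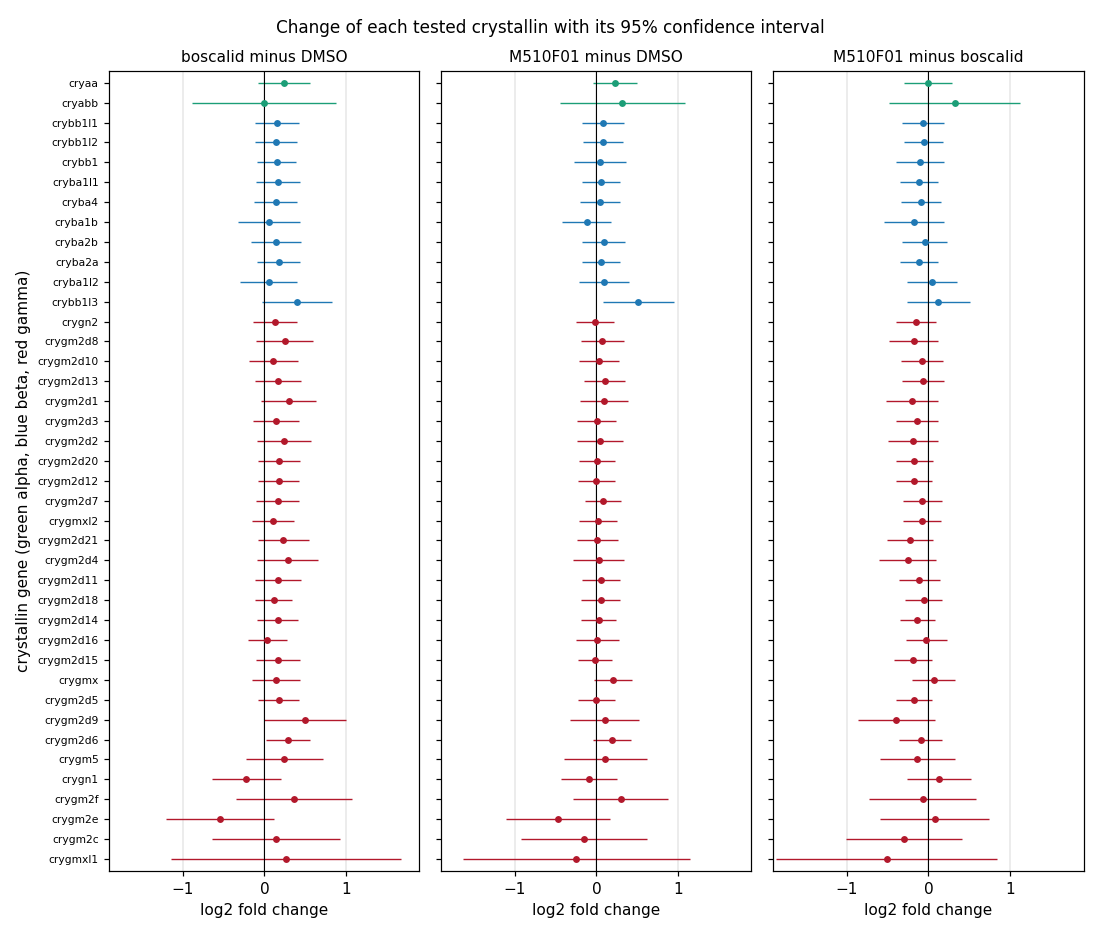
Log2 fold change of each of the 40 tested crystallins (points) with its 95% confidence interval (bars) for boscalid minus DMSO, M510F01 minus DMSO and M510F01 minus boscalid, with genes ordered by class and mean count and coloured by class. Points of the first panel lie mostly right of 0 (37 of 40) and those of the third mostly left of 0 (34 of 40), and nearly all intervals include 0.

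M510F01 and boscalid were then compared directly, as 1 pair of compounds at a matched concentration of 0.03 µg/L and a matched time. Of the 40 tested crystallins 0 passed the limma threshold, against 3 of 23131 genes (0.0130%), and 0 had an unadjusted p under 0.05, against 4.60% of all genes. EdgeR and DESeq2 called 0 crystallins, also with 0 at an unadjusted p under 0.05, while they called 0.0130% and 0.0865% of all genes. Log2 fold changes were negative for 34 of 40 members, while 50.7% of all genes tested were positive. The median was -0.11 over the tested crystallins and 0.0033 over all genes. The medians were 0.15 for the 2 tested alpha, -0.08 for beta and -0.14 for gamma crystallins, and all 19 crygm2d genes were negative (median -0.17). Of the alpha genes, cryaa had -0.01 and the low cryabb 0.32 (SE 0.37).

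The count of members with positive values, 6 with all libraries, was 13 without M510F01 replicate 3 and 14 without boscalid replicate 3. The median was 0.01 for beta crystallins without M510F01 replicate 3 and -0.06 for gamma crystallins without boscalid replicate 3. Confidence intervals had a median half-width of 0.26 on the log2 scale, so differences below that size were not resolved and the missing calls do not show that the compounds act alike.

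The smallest p in this comparison was that of crygm2d9, at 843 ± 177 normalized counts with M510F01 and 1123 ± 329 with boscalid (SD, n = 4 each). Its log2 fold change was -0.39 (95% confidence interval -0.86 to 0.08, limma adjusted p = 0.842). Crygm2d15, crygm2d21 and crygm2d12, other gamma M crystallins, had -0.19, -0.22 and -0.18 with SEs between 0.10 and 0.13. The highest value was 0.32 (SE 0.37) for cryabb and the lowest -0.51 (SE 0.63) for crygmxl1, whose M510F01 libraries had 4.09, 5.07, 11.5 and 16.5 normalized counts and whose boscalid libraries had 13.5, 4.71, 15.6 and 19.4. Cryaa had -0.01 (95% confidence interval -0.30 to 0.28).

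Across the 31 abundant members the boscalid mean was the highest of the 3 groups for 30, the exception being crygmx, with M510F01 second and DMSO lowest for 25 and DMSO second and M510F01 lowest for 5. That order rests on group means whose libraries overlap, and neither neighbour in it was separated by the test. The members vary together, and 30 of the 31 had their highest boscalid value in the library numbered 3. They are thus not independent observations of the order, and its share among all genes was not counted. The authors' deposited table of their own fold changes against DMSO also held no crystallin with an adjusted p under 0.05. Its smallest was 0.657 for crygm2d6 with boscalid, over 46 members with an adjusted p. With M510F01 all 54 members had the same value, 0.999. Of all genes with an adjusted p there, 0.333% passed with boscalid and 0% with M510F01.

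The 14 members under the minimum were read directly as reads. Crybb2 had 2, 1, 1 and 1 reads in the M510F01 libraries and 1, 3, 2 and 1 in the boscalid libraries, and it had 0 in each of the 4 DMSO libraries, a count that allows up to 3 reads in their sum. Crybb3 had 6, 4, 3 and 3 reads with M510F01, 3, 4, 5 and 4 with boscalid, and 8, 6, 9 and 9 with DMSO. Crygm2a had 0 reads with M510F01, 4 with boscalid and 4 with DMSO, each summed over 4 libraries. These 3 genes were named after their values were seen, as the genes under the minimum whose normalized counts did not overlap between groups.

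Among genes under the minimum, such separation was seen for 1 crystallin above DMSO and 1 below it with boscalid, where 0.627% and 1.77% of all genes under the minimum were separated in those directions. With M510F01 it was seen for 1 above and 2 below, where the shares were 0.583% and 1.35%. For M510F01 against boscalid none of the 14 was separated, where 1.29% of genes were above and 0.722% below. None of the 40 tested crystallins was separated in any comparison, where 2.20% of the genes tested were above and 2.07% below with boscalid, 1.12% above and 1.06% below with M510F01, and 1.06% above and 1.39% below for M510F01 against boscalid. Fitted without the minimum, crybb2 had a limma adjusted p of 0.384 with boscalid and 0.984 with M510F01, and crybb3 had 0.621 and 0.984. At 0 to 9 reads per library these differences rest on very few reads.

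Within each group the abundant crystallins varied together from library to library. Of the 31 abundant members, 30 had their highest boscalid value in the library numbered 3, and 30 had their highest DMSO value in the library numbered 3. In the M510F01 group 27 had their lowest value in the library numbered 3, and 19 had their highest in the library numbered 1. The coefficient of variation within a group had a median of 9.53% with M510F01, 13.8% with boscalid and 8.72% with DMSO. It was highest for crygm2d9 in all 3 groups, at 21.0% with M510F01, 29.3% with boscalid and 27.0% with DMSO. Between the highest and the lowest of all 12 libraries, abundant members differed from 1.34-fold for crygm2d18 to 2.78-fold for crygm2d9.

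**Figure D4:**
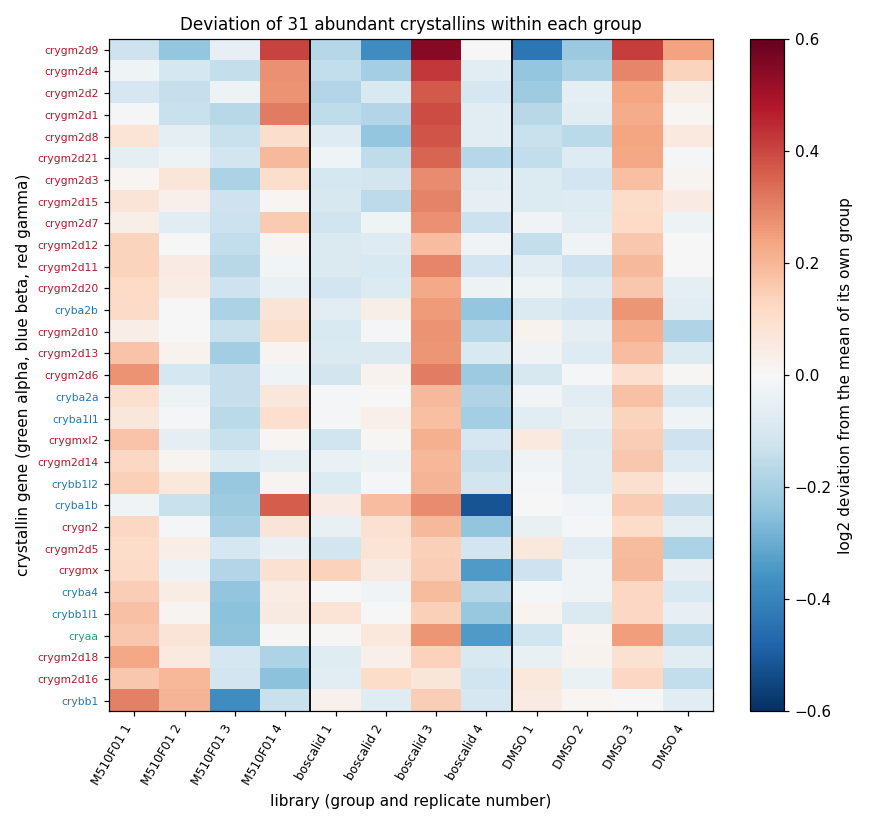
Log2 deviation of each of the 31 abundant crystallins (rows) from the mean of its own group in each of the 12 libraries (columns, M510F01, boscalid and DMSO from left to right). The columns of boscalid replicate 3 and DMSO replicate 3 are above the group mean for all 31 genes. The column of M510F01 replicate 3 is below it for all 31, and crygm2d9 in the top row varies most.

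The balance of the classes also differed between libraries of a group. Gamma crystallins made up between 56.3% and 58.2% of crystallin reads in the 6 libraries numbered 3 and 4, against 54.7% to 55.6% in the 6 libraries numbered 1 and 2. Beta crystallins made up 41.4% to 43.3% in the libraries numbered 3 and 4, against 43.9% to 44.7% in those numbered 1 and 2, and the alpha shares overlapped. The labels do not say what the numbers mark, and this division was noticed in the data, so it is given as a description with no test.

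Crygm2d9 showed this division most. Crybb1, a beta crystallin, lay at the other end, with a log2 difference of numbers 3 and 4 minus 1 and 2 of -0.51 with M510F01, 0.05 with boscalid and -0.06 with DMSO. As a percentage of the counts of crybb1, crygm2d9 had 8.06, 8.03, 13.6 and 15.8 in M510F01 libraries 1 to 4, 11.6, 10.8, 17.5 and 14.2 in boscalid libraries, and 7.48, 8.88, 14.0 and 12.9 in DMSO libraries. In each group both libraries numbered 3 and 4 exceeded both numbered 1 and 2. The pair was taken from the 2 ends of the order of abundant members by this same difference. That choice favoured a separation of the ratio, which is therefore no further evidence of the division. In the M510F01 group the lower crybb1 counts in numbers 3 and 4 made up the larger share of the difference in the ratio. On the log2 scale crygm2d9 was higher in numbers 3 and 4 by 0.36 with M510F01, 0.54 with boscalid and 0.66 with DMSO. Of the 31 abundant members 6, all crygm2d genes, were higher in numbers 3 and 4 in all 3 groups. A further 17 were higher in 2 groups, 7 in 1 group and crygm2d16 in none. The share of all genes higher in all 3 groups was not counted, and the members vary together. The count of 6 is therefore a description and no trait of the crygm2d genes. With a term for this division in the fit, 0 crystallins passed the threshold in any comparison.

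Other genes of the lens were followed to set the crystallins in context. Of 24 listed lens fibre genes that are no crystallins, 23 were found and 21 tested. They include genes of membrane channels, cell junctions and the beaded filament of fibre cells. None passed the limma threshold in any comparison. With boscalid 1 had an unadjusted p under 0.05 (7.68% of all genes) and 17 were positive (50.0% of all genes), with a median log2 fold change of 0.09. The values differed within the list. Mipa, mipb, lim2.1 and lim2.4 had 0.22, 0.20, 0.21 and 0.19, gja8b and gja3 0.15 and 0.09, and bfsp2 0.14 with boscalid. The other lim2 copies were lower, with 0.06 for lim2.2, 0.09 for lim2.3 and 0.10 for lim2.5, and gja8a had 0.01. Birc7 had 0.13, capn3a 0.08, dnase1l1l 0.04 and caprin2 -0.25. Lgsn had 0.23 and grifin -0.05. Cdh2, with most counts of the list (mean 2801 with boscalid), had 0.02, jam3b 0.08 and epha2b -0.13. Whole larvae were sampled, so reads of these genes from other tissues enter their values. With M510F01 the median over the list was 0.03 with 15 positive (51.3% of all genes) and 1 at an unadjusted p under 0.05 (3.61% of all genes). For M510F01 minus boscalid it was -0.07 with 6 positive (50.7% of all genes) and none under 0.05 (4.60% of all genes).

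The gene of the fibre list with the smallest p was epha2a, which encodes an ephrin receptor. In whole larvae its reads from the lens and from other tissues cannot be told apart. It averaged 214 ± 32.9 in boscalid larvae and 301 ± 53.8 in DMSO larvae (SD, n = 4 each). The log2 difference was -0.49 (SE 0.15, limma adjusted p = 0.558). In the other table it averaged 215 ± 26.2 in M510F01 larvae and 302 ± 54.3 in DMSO larvae, a log2 difference of -0.48 (SE 0.14). Lgsn, the lens protein lengsin, had 0.23 (SE 0.12) and lim2.1, a lens membrane protein, 0.21 (SE 0.14) with boscalid. Summed over the list, counts ran from 11719 to 13717 in M510F01 libraries, 12070 to 14703 in boscalid libraries and 12056 to 13210 in DMSO libraries.

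Of 18 transcription factors of lens development that were tested, 0 passed the limma threshold in any comparison. The medians were 0.11 with boscalid, where 2 had an unadjusted p under 0.05, 0.07 with M510F01, where none had, and -0.03 for M510F01 minus boscalid, where 1 had. In limma the shares of all genes with such a p were 7.68%, 3.61% and 4.60% in that order. Six3b had 0.28 (SE 0.12) and sox1a 0.24 (SE 0.11) with boscalid. For these factors too, reads from the lens and from other tissues of the larva cannot be told apart. Foxe3, a factor of the lens epithelium, averaged 25.7 ± 9.18 in boscalid larvae and 36.2 ± 6.86 in DMSO larvae (SD, n = 4 each), a log2 difference of -0.52 (SE 0.25).

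Small heat shock genes outside the crystallins, the family of cryaa, had medians of -0.12 with boscalid, -0.10 with M510F01 and 0.03 for M510F01 minus boscalid over 10 genes, none of which passed in limma, edgeR or DESeq2. At an unadjusted p under 0.05 limma had 0 of them in each comparison, edgeR had 2 with M510F01, and DESeq2 had 1 with boscalid and 1 with M510F01. In limma the share of all genes was 7.68% with boscalid, 3.61% with M510F01 and 4.60% for M510F01 minus boscalid. For edgeR and DESeq2 that share was not counted, so their counts have no background beside them. With boscalid hspb11 had -0.38 (SE 0.18), hspb15 0.30 (SE 0.15) and hspb8 -0.21 (SE 0.12). Genes named crystallin for other reasons, such as cryz, an oxidoreductase, and crybg1a and crybg1b, larger proteins with beta gamma repeats, were 6 in number among those tested. Their medians were 0.08 with boscalid, 0.05 with M510F01 and 0.03 for M510F01 minus boscalid, and none passed in limma or had an unadjusted p under 0.05. With boscalid crybg1b had -0.50 (SE 0.26), crybg1a -0.20 (SE 0.12) and cryz 0.24 (SE 0.15).

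The photoreceptor markers had medians of the same sign as the crystallins in each comparison and farther from 0, while single genes of both lists overlapped and the difference between the lists was not tested. All 10 photoreceptor markers had positive log2 fold changes with boscalid (median 0.47, 9 with an unadjusted p under 0.05) and with M510F01 (median 0.19, 1 under 0.05). All 10 were negative for M510F01 minus boscalid (median -0.24, 2 under 0.05). Of all genes tested, 7.68%, 3.61% and 4.60% had an unadjusted limma p under 0.05 in these comparisons. Positive values were had by 50.0%, 51.3% and 50.7% of all genes, in the same order. Like the crystallins, the markers share libraries, so they are not independent observations of a difference. None passed the limma threshold, and edgeR and DESeq2 called none. Gnat1, the alpha subunit of rod transducin, averaged 960 ± 78.1 in boscalid larvae and 699 ± 100 in DMSO larvae (SD, n = 4 each). Its log2 difference was 0.47 (SE 0.12, limma adjusted p = 0.467). The rod genes pde6a and saga, a phosphodiesterase subunit and an arrestin, had 0.48 (SE 0.14) and 0.53 (SE 0.16).

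Summed counts of the 10 photoreceptor markers ran from 31643 to 40124 in M510F01 libraries, 39346 to 49338 in boscalid libraries and 23899 to 40967 in DMSO libraries. Their highest library was the third in the boscalid and in the DMSO group, as for most abundant crystallins. Their lowest M510F01 library was the second, where most abundant crystallins had their lowest in the third. The summed lens fibre list was highest in the third boscalid library (14703) and the third DMSO library (13210). It was lowest of the M510F01 group in the third library (11719), as were most abundant crystallins. The third boscalid and DMSO libraries were also highest for the summed markers of pigment epithelium, fast muscle and exocrine pancreas. Sums of the blood, liver, epidermis and neuron markers did not peak in both of these libraries. The 4 markers of the pigment epithelium had medians of 0.31 with boscalid, 0.07 with M510F01 and -0.27 for M510F01 minus boscalid, with sums of 4555 to 6146, 5655 to 7132 and 4053 to 5908 in M510F01, boscalid and DMSO libraries. None of the 4 passed in limma, edgeR or DESeq2, and 2 had an unadjusted p under 0.05 in limma with boscalid (7.68% of all genes). No marker of these lists was at 0. The part of these other eye cells in the crystallin values was not tested.

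Of the listed markers of the remaining tissues of a whole larva, 1 of the 3 for exocrine pancreas matched no symbol in the tables. The others were all detected, the lowest with a mean of 16.5 normalized counts. Their medians with boscalid were 0.06 for 4 fast muscle genes, -0.28 for 3 blood genes, 0.37 for 2 exocrine pancreas genes, 0.12 for 3 liver genes, 0.46 for 3 epidermis genes and 0.01 for 3 neuron genes. With M510F01 they were -0.10, -0.38, 0.06, 0.14, -0.09 and -0.0037 in the same order of lists. No gene of these lists passed in limma, edgeR or DESeq2 in any comparison. In each list and comparison 0 or 1 gene had an unadjusted p under 0.05 in limma, where 3.61% to 7.68% of all genes had.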

How the data were processed

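Per the labels' protocols, total RNA of whole larvae was depleted of ribosomal RNA, and stranded libraries were read from both ends. FastQC, cutadapt, STAR, featureCounts and DESeq2 are named without versions in the submitters' processing notes. No build, annotation or counting strand is given in the sources used here. The authors deposited 1 table per compound whose signal is a normalized count for every gene in every library. The authors also deposited log2 fold changes against DMSO, a score per gene (the Wald statistic) and p-values, per the file headers. Each normalized count was a whole multiple of its library's step (100% of values, tolerance 0.01 reads), which gave back the reads. Pairs of libraries in a group differed by a chi-square per gene of 5.43 to 41.7, so no library was a copy of another in its own group.

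Limma 3.58.1 (R 4.3.3, with trend and robust estimation) was fitted to log2(normalized count + 1), over all genes with a mean of at least 10, with Benjamini-Hochberg adjustment over all genes tested and a threshold of 0.05. Fold changes are on that log2 scale, which understates changes of low genes. Comparisons with DMSO stayed within each compound's table, and M510F01 and boscalid were compared in a joint fit of 12 libraries rescaled by median-of-ratios. The fit was also run on simulated data, with larger changes than those of the tested crystallins and with genes drawn independently. That run therefore does not show how changes of the present size are called. Alternatives covered the pseudocount, the minimum, TMM and upper-quartile rescaling, edgeR 4.0.16, DESeq2 1.42.0, limma without the robust setting, a replicate block, a term for replicate numbers, the joint fit and leaving out each library. Counting members with a positive value without each library was added after seeing the data. Tables and figures used Python 3.11.15, pandas 2.3.3 and matplotlib 3.10.9.

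Members, gene lists, tests and alternatives were chosen with earlier results of these data known. Genes were named by rule: every alpha member, the 5 beta and 8 gamma members with most counts, and in each comparison the 4 smallest p and the highest and lowest fold change. Of each other list the 3 genes with the smallest p with boscalid were to be named, and those of the pigment epithelium and the remaining tissues are given as medians. Beyond that rule, every tested gene of the lens fibre list is given with boscalid. Levels per length were planned, but transcript lengths were not used here, so genes are compared by reads. All 55 rows of the symbol rule matched the RefSeq table of GRCz12tu by gene number.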

Additional observations from a re-analysis of the deposited data

Results flagged for a closer look

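Among the 25 named genes, the 3 class sums and the sum of all crystallins, which make 87 groups of 4 values, the highest or lowest library lay farther from the rest than Dixon's limit for 4 values in 9. Chance exceeds that limit in 1 of 20 groups. The named genes were partly chosen for small p-values or extreme fold changes. Over all members and sums, 20 of 170 groups with any spread exceeded it, of which 6 were among the 93 groups of abundant members. The values of a library are not independent of each other. In the boscalid group the library numbered 3 was apart for the summed gamma crystallins, at 92334 normalized counts, with the other 3 between 70507 and 72620. The same library was apart for 5 crygm2d genes, of which 4 are named genes: crygm2d1 at 6098 (others 4123 to 4456), crygm2d13 at 5764 (others 4507 to 4520), crygm2d2 at 5489 (others 3772 to 3988) and crygm2d3 at 5135 (others 3904 to 4017). In the DMSO group the library numbered 3 was apart for the summed gamma crystallins, at 76368 (others 63811 to 65902), and for all crystallins, at 133913 (others 114891 to 116446). Cryaba was apart in 1 M510F01 library, at 1.01 normalized counts, and in 1 DMSO library, at 0.989. Each of these stands for a single read, with 0 reads in the other 3 libraries of the group.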

How the results depend on the processing

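No crystallin passed the threshold under any of the alternatives run. All 224 alternative values of the counts of called members and of the class medians stayed within the spread used to compare them. So did 1312 values of the named genes and of the positive counts, and 55 more of these moved beyond it without a call. That spread allowed changes of sign. The alpha median with boscalid, 0.12 in the main fit, was -0.05 without DMSO replicate 2. Staying within the spread therefore does not show that a sign is stable. The smallest adjusted p of any crystallin over all alternatives was 0.063 with boscalid (replicate block, crygm2d9), 0.495 with M510F01 (crybb1l3, leaving out a library) and 0.257 for M510F01 minus boscalid (replicate block, crygm2d9). Same-numbered libraries of different groups had correlations of their deviations between -0.0243 and 0.510, not all above 0.1, so the numbers were not taken to pair the samples and not every library was nearest its own number. The replicate block gave 0 called crystallins in each comparison, and over all genes 90 calls with boscalid (4 without the block), 1 with M510F01 (0) and 8 for M510F01 minus boscalid (3). DESeq2 called 91, 0 and 20 genes in all, the term for replicate numbers 19, 0 and 5, and the joint fit 9 with boscalid. Leaving out single libraries gave 2 to 8 calls with boscalid, 0 with M510F01 and 2 to 3 for M510F01 minus boscalid. Over the same fits the boscalid medians ran from -0.05 to 0.25 for alpha, 0.09 to 0.22 for beta and 0.10 to 0.23 for gamma crystallins. The M510F01 medians ran from 0.10 to 0.40 for alpha, 0.03 to 0.14 for beta and -0.0052 to 0.09 for gamma crystallins. For M510F01 minus boscalid they ran from 0.02 to 0.29 for alpha, -0.14 to 0.01 for beta and -0.18 to -0.06 for gamma crystallins. Members with a positive value numbered 35 to 39 with boscalid, 24 to 35 with M510F01 and 4 to 14 for M510F01 minus boscalid. Without the minimum cryaba enters the alpha class, whose median was then 0.24 with boscalid and -0.01 for M510F01 minus boscalid. Read depth limits members under 10 normalized counts, where single reads decide the values.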
